A study of Mus musculus with 15 samples.

Results

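The circadian clock genes Per1, Per2, Per3, Cry1, Cry2, Nr1d1, Nr1d2, Dbp, Tef and Clock were followed in whole blood of mice with tongue tumors. These 10 genes were taken by symbol from the 55416 genes in the deposited count files, and each was found under its own Ensembl identifier. Each of 15 mice gave 1 RNA library, with 5 mice per group. The early group had received 2 doses of antibody to the checkpoint receptor CTLA-4 and then an early neck dissection, which is the surgical removal of the lymph nodes of the neck. The late group had received the same 2 doses and is labelled with a late neck dissection, and the untreated group had neither antibody nor surgery. The labels give all 15 animals the strain C57BL/6, wild type, and the same orthotopic transplant of 4MOSC1 cells, a mouse oral carcinoma line, grown in the tongue for 10 days. The study's methods describe female recipients of 4 to 6 weeks of age, kept in a cycle of 12 h light and 12 h dark. Early surgery was on day 6 and late surgery on day 11 after transplantation. The legend of the study's blood experiment places the bleed on day 10, before late surgery, while its text places it afterwards, and the labels do not settle this. Blood was taken from the cheek, and the hour of bleeding is in no label.

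The circadian clock is a feedback loop of transcription that runs in nearly every cell of the body, blood leukocytes included. The proteins CLOCK and BMAL1 bind E-boxes and switch on the Per and Cry genes, whose products return to the nucleus and repress them. The nuclear receptors NR1D1 and NR1D2 repress Bmal1, and DBP and TEF activate genes through D-boxes. In mouse tissues with a running clock, transcripts such as Dbp, Nr1d1 and Per3 peak at a time of day roughly opposite to that of Bmal1 and Npas2. A set of samples taken at another hour would therefore tend to show these sets displaced in opposite directions. Stress hormones also act on some of these genes directly, Per1 among them.

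The libraries differed in depth and composition before any clock gene was considered. Gene counts ran from 5862888 to 10796099 in untreated mice (median 6266684), from 5527108 to 7182346 in the early group (median 6727311) and from 7849602 to 13924361 in the late group (median 10929570). Levels below are in CPM, the usual unit for counts relative to the size of a library, scaled by TMM, a method that sets the scale of each library from the bulk of its genes. The TMM factors spanned 0.425 to 1.92, and 1 CPM stood for 2.49 counts in untreated 1 and for 24.95 counts in late 2. Other differences between libraries are carried through the results. The 18S ribosomal gene Rn18s-rs5 was at 766, 313 and 521 CPM by library totals in untreated 2, late 2 and late 3, and at 13402 or more in the other 12. The sebaceous gland gene Scd3 was above 300 CPM in untreated 5, early 3 and late 5, at 624, 323 and 481 CPM. Read pairs assigned to no annotated feature were 22.6% to 30.8% of the aligned pairs as counted in the 5 late libraries. In the other 10 they were 12.6% to 18.5%. All unassigned pairs together were 75.6% to 81.1% in the late libraries and 83.8% to 88.1% in the others, and whether this has a part in the differences of the late group was not tested. Haemoglobin and other red cell transcripts were low throughout the late group, as given with the blood cell markers.

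Every clock gene was detected in every library, at low to moderate depth. Per1 was covered by 28 to 710 counts per library, Tef by 40 to 312 and Nr1d2 by 26 to 260. The thinnest were Dbp with 2 to 103, Nr1d1 with 1 to 59 and Per3 with 1 to 63 counts. Per kilobase of exon, mean levels over the 15 libraries ran from Cry1 at 2.68 ± 0.733 CPM per kb (SD, n = 15) and Per1 at 2.51 ± 0.845 through Tef at 1.68 ± 0.399, Per2 at 1.33 ± 0.566, Nr1d2 at 1.23 ± 0.308, Clock at 1.03 ± 0.191 and Dbp at 0.967 ± 0.307. Cry2 at 0.601 ± 0.131, Nr1d1 at 0.582 ± 0.265 and Per3 at 0.187 ± 0.0716 CPM per kb stood below them. Neighbours in this order lay within the larger SD of the pair, except that Dbp stood clear of Cry2 and Nr1d1 clear of Per3. The genes also differed in how far they varied between mice. The highest library exceeded the lowest 10.6-fold for Per3, 8.87-fold for Nr1d1 and 7.18-fold for Dbp, which are also the genes with the fewest counts, and 1.7-fold for Clock.

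**Figure D1:**
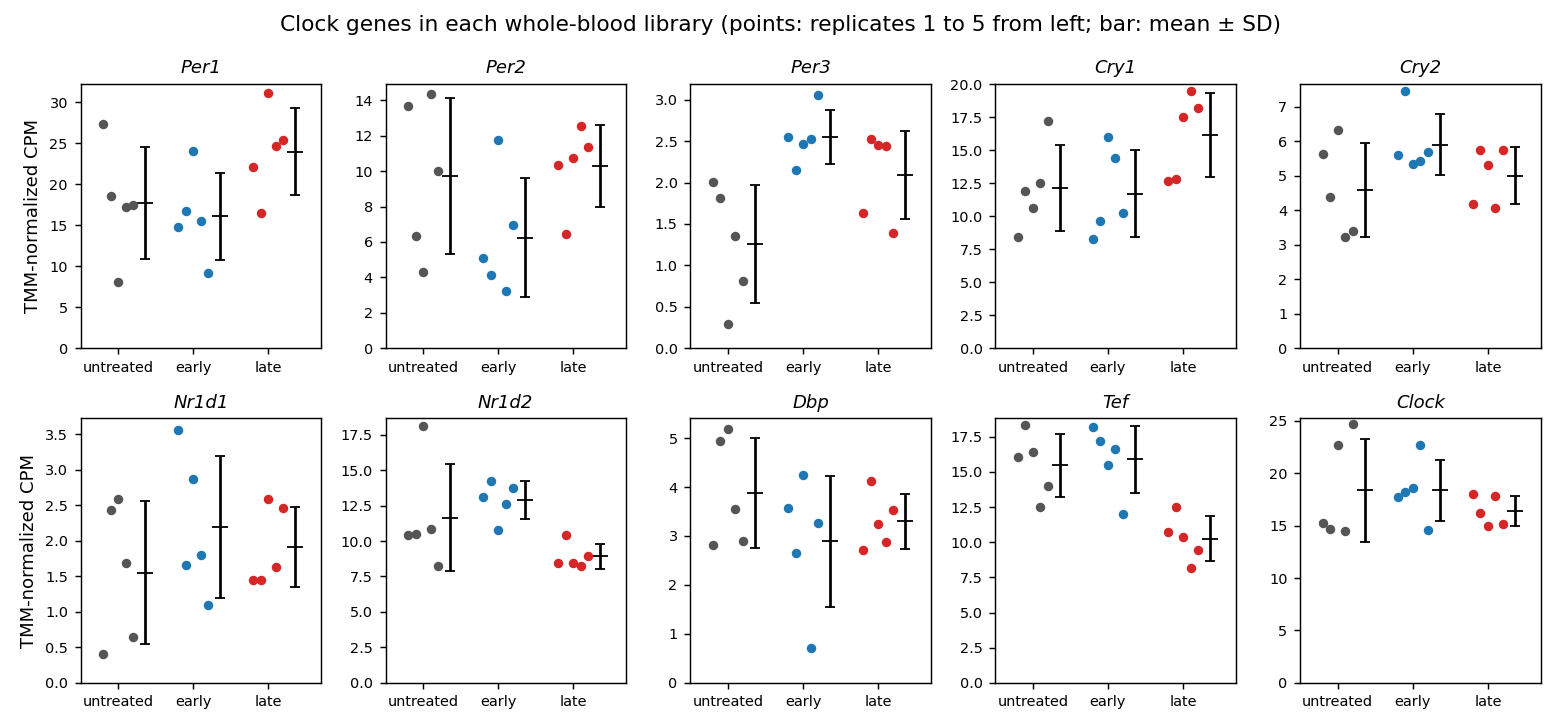
TMM-normalized CPM of the 10 clock genes (vertical axes, CPM) in each of 15 whole-blood libraries, grouped as untreated, early and late on the horizontal axes, with replicates 1 to 5 from left to right and the mean ± SD as a bar (n = 5). Late libraries lay below all early libraries for Nr1d2 and, except late 2, for Tef, a direction that holds under TMM and turns when libraries are scaled by their totals.

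Tef and Nr1d2 are described first, since they are the clock genes that passed the test between the late and early groups. Tef (ENSMUSG00000022389, chr15:81686622-81711064, plus strand of GRCm39) encodes a transcription factor that binds D-boxes, as DBP does. It stood at 16.1, 18.3, 16.4, 12.5 and 14.03 CPM in untreated mice 1 to 5. In early mice 1 to 5 it was at 18.2, 17.2, 15.5, 16.6 and 12 CPM. In late mice 1 to 5 it was at 10.7, 12.5, 10.3, 8.20 and 9.47 CPM. The late libraries were the low ones, and the early and late groups overlapped in the single value of early 5, which lay below late 2.

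Nr1d2 (ENSMUSG00000021775, chr14:4230545-4266624, plus strand) encodes the repressor also called REV-ERB beta. Its untreated values were 10.5, 10.5, 18.1, 10.8 and 8.22 CPM in mice 1 to 5. The early values were 13.1, 14.3, 10.8, 12.6 and 13.8 CPM. The late values were 8.44, 10.4, 8.45, 8.27 and 8.97 CPM. All 5 late values lay below all 5 early values, while the untreated group spanned both, with untreated 3 highest of the 15 and untreated 5 lowest.

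Per1 (ENSMUSG00000020893, chr11:68986035-69002300, plus strand) encodes a repressor of the loop that also responds quickly to hormones. It was at 27.3, 18.6, 8.06, 17.2 and 17.4 CPM in untreated mice 1 to 5. In early mice 1 to 5 it was at 14.8, 16.7, 24.1, 15.5 and 9.17 CPM. In late mice 1 to 5 it was at 22.1, 16.5, 31.1, 24.6 and 25.4 CPM. The late values reached highest, but late 2 lay among the early values and early 3 lay among the late ones.

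The sequences before the starts of Tef, Nr1d2 and Per1 are shown because these genes carry the differences and the correlation reported here. Each line holds the 250 bases before the canonical start in the GENCODE annotation, read 5′ to 3′ from GRCm39. The windows are chr15:81695365-81695614 for Tef, chr14:4230295-4230544 for Nr1d2 and chr11:68989018-68989267 for Per1, each on the plus strand. Capitals mark matches, on either strand, to an E-box (CACGTG), a D-box (TTATGTAA), a cyclic AMP response element (TGACGTCA) or the core motif of the ROR and NR1D receptors (AGGTCA).

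Tef: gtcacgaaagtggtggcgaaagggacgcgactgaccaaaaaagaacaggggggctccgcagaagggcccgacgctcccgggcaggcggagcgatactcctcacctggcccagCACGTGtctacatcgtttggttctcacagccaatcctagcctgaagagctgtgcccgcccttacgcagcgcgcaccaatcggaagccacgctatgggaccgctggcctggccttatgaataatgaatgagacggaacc

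Nr1d2: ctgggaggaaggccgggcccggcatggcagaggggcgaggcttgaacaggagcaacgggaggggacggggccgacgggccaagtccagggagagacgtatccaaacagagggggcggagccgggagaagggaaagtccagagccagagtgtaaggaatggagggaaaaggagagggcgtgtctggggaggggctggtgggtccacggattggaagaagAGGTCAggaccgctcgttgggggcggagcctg

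Per1: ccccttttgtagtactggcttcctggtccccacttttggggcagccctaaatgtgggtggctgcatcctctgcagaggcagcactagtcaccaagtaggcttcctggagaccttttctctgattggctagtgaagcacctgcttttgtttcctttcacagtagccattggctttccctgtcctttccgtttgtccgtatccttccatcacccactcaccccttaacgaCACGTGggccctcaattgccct

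The Tef window held an E-box 138 to 133 bases before the start and the Per1 window an E-box 22 to 17 bases before it. The Nr1d2 window held a receptor motif 32 to 27 bases before the start and no E-box. Among the windows of all 10 clock genes, 3 held the E-box (Per1, Cry1 and Tef), against 6.26% of the 21770 windows of protein-coding genes. The D-box was in the windows of Per2 and Per3, 2 of 10 against 0.836%, and the receptor motif in those of Nr1d2 and Dbp, 2 of 10 against 13.1%. The cyclic AMP element was in 0 of 10 windows and in 1.69% of all windows. The genes that were lower in the late group thus did not share a match to these letters, and matches describe sequence, not binding.

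The remaining repressors of the loop were Per2, Per3, Cry1 and Cry2. Per2 (ENSMUSG00000055866, chr1:91343700-91387069, minus strand) was at 13.7, 6.33, 4.32, 14.4 and 10.0 CPM in untreated mice 1 to 5. Its early values were 5.10, 4.14, 11.8, 3.25 and 6.98 CPM and its late values 10.4, 6.45, 10.8, 12.6 and 11.4 CPM. Early 3 was the high early library for Per2, as it was for Per1, and late 2 was the low late library for both genes. Per3 (ENSMUSG00000028957, chr4:151081373-151129140, minus strand) averaged 1.25 ± 0.711 CPM in untreated, 2.55 ± 0.325 in early and 2.09 ± 0.534 in late mice (SD, n = 5 each). Its early values, from 2.15 to 3.06 CPM, all lay above its untreated values, from 0.288 to 2.01 CPM. Cry1 (ENSMUSG00000020038, chr10:84967560-85021252, minus strand) averaged 12.2 ± 3.25, 11.7 ± 3.32 and 16.2 ± 3.16 CPM in untreated, early and late mice (SD, n = 5 each). Cry2 (ENSMUSG00000068742, chr2:92233894-92264474, minus strand) averaged 4.59 ± 1.37, 5.90 ± 0.881 and 5.003 ± 0.828 CPM (SD, n = 5 each). For Cry1 and Cry2 each pair of groups overlapped.

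Dbp, Nr1d1 and Clock showed no separation of the groups. Dbp (ENSMUSG00000059824, chr7:45354512-45359627, plus strand), among the most strongly cycling transcripts of many mouse tissues, was at 2.81, 4.94, 5.18, 3.55 and 2.90 CPM in untreated mice 1 to 5. The early values were 3.57, 2.65, 4.24, 0.722 and 3.27 CPM, and the late values 2.72, 4.13, 3.24, 2.88 and 3.54 CPM. The lowest, early 4, rested on 2 counts, and apart from it Dbp stayed between 2.65 and 5.18 CPM in every mouse. Nr1d1 (ENSMUSG00000020889, chr11:98658752-98666188, minus strand), which encodes REV-ERB alpha, averaged 1.55 ± 1.00 CPM in untreated, 2.20 ± 1.00 in early and 1.91 ± 0.563 in late mice (SD, n = 5 each). Clock (ENSMUSG00000029238, chr5:76342860-76452846, minus strand), the activator that pairs with BMAL1, averaged 18.4 ± 4.91, 18.4 ± 2.90 and 16.4 ± 1.43 CPM (SD, n = 5 each).

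The late and early groups received the same antibody, and they differ by label in the timing of surgery. If blood was drawn on day 10, the late mice had not yet had surgery, and the comparison is of early surgery with none. If it was drawn after late surgery, the comparison is of early with late surgery. Tef fell in the late group, from a mean of 15.9 ± 2.40 to 10.2 ± 1.59 CPM (SD, n = 5 each), with a fitted ratio of 0.659, a log2 fold change of -0.60 ± 0.15 (SE) and an edgeR adjusted p of 0.0413. Nr1d2 fell from a mean of 12.9 ± 1.32 to 8.91 ± 0.883 CPM, with a fitted ratio of 0.707, a log2 fold change of -0.50 ± 0.13 and an adjusted p of 0.0426. Scaling by library totals instead turned both to positive log2 values, 0.24 for Tef and 0.36 for Nr1d2, below the shift of 0.86 that this scaling gave the median of all genes. By two-sided exact permutation tests of log2 CPM, not adjusted for the number of genes, p was 0.0159 for Tef. There 4 of 5 late mice lay below every early mouse. For Nr1d2 it was 0.00794, the smallest that 5 against 5 mice can give, with 5 of 5 late mice below every early mouse. For Per1, higher in late mice, it was 0.0476, and for the remaining clock genes 0.0714 or more. In bulk blood, fewer cells of a type that carries a transcript and less of that transcript per cell cannot be told apart.

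Between late and early mice 0 of the 10 clock genes were called higher and 2 lower, and 8 did not pass at an adjusted p of 0.05. Over all 13315 genes tested by edgeR, 2.50% were called higher and 2.48% lower, or 333 and 330 genes. Scaling by library totals made this split 8923 higher and 137 lower. DESeq2 also called 0 higher and 2 lower, again Tef and Nr1d2, against 5.91% higher and 5.15% lower of 13016 genes. At an unadjusted p under 0.05, 5 of 10 clock genes passed, against 23.8% of all genes. Groups that do not overlap were seen for 1 clock gene, Nr1d2, on the low side, where 2.93% of all genes were, and for 0 on the high side, where 2.98% were. The median log2 fold change of the clock genes was -0.17, against 0.014 over all genes.

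The other clock genes that came nearest to the threshold pointed upward. Per2 was 0.68 ± 0.30 higher on the log2 scale in the late group (adjusted p 0.186), Per1 0.58 ± 0.22 (adjusted p 0.132) and Cry1 0.50 ± 0.20 (adjusted p 0.148). Clock at -0.13, Cry2 at -0.20, Nr1d1 at -0.22, Per3 at -0.24 and Dbp at 0.15 had adjusted p from 0.532 to 0.818. The late group thus did not show all repressors, or all factors that bind D-boxes, displaced together. These calls depended on single libraries. Without early 3, Per1 (log2 fold change 0.80, adjusted p 0.0264), Per2 (1.07, 0.0194) and Cry1 (0.68, 0.038) passed as higher, beside Tef and Nr1d2 as lower, in a fit that called 1057 genes higher and 553 lower of 13676. The Tef call was lost without any 1 of early 1, 2 and 4 and late 1, 3, 4 and 5 (adjusted p 0.0601 to 0.0962). The Nr1d2 call was lost without any 1 of early 1, 2, 4 and 5 and late 1, 3, 4 and 5 (0.0619 to 0.0948), while the log2 fold changes stayed between -0.72 and -0.55 for Tef and between -0.60 and -0.47 for Nr1d2. Without the libraries poor in 18S sequence, which left 3 late mice, Tef was at -0.76 (adjusted p 0.0561) and Nr1d2 at -0.59 (0.0614).

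**Figure D2:**
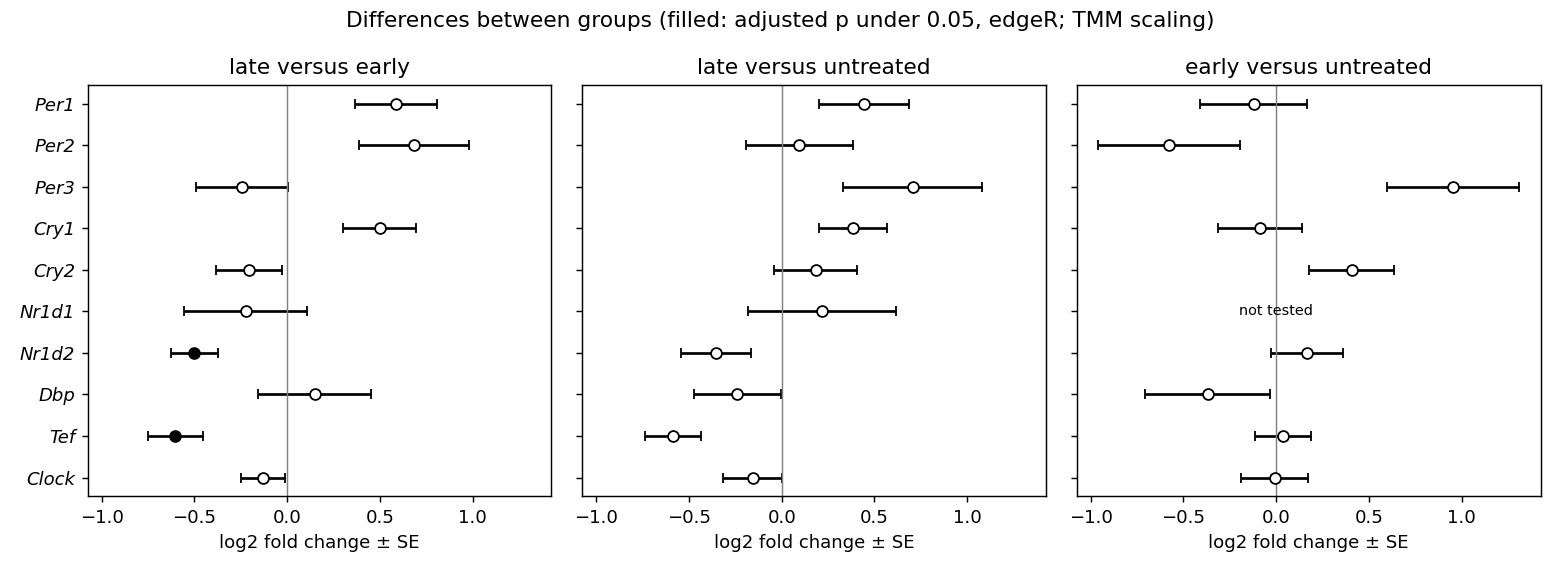
Log2 fold change ± SE (horizontal axes) of each clock gene (vertical axis) in the 3 comparisons, by edgeR with TMM scaling. Filled points have an adjusted p under 0.05: Tef and Nr1d2 in late versus early mice, at -0.60 and -0.50, which scaling by library totals turned to 0.24 and 0.36.

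The late group was next set against untreated mice, which had neither antibody nor surgery. Tef was again the low gene, at 10.2 ± 1.59 CPM in late and 15.5 ± 2.24 CPM in untreated mice (SD, n = 5 each). All 5 late values, up to 12.50 CPM, lay below all 5 untreated values, from 12.51 CPM, so the groups were parted by a narrow gap. Its log2 fold change was -0.59 ± 0.15 with an edgeR adjusted p of 0.0614, short of the threshold. The exact permutation p was 0.00794, the smallest possible, and library totals turned the value to 0.33, below their median shift of 0.91. DESeq2 called Tef lower, at -0.60 with an adjusted p of 0.0131, and edgeR did with a filter of at least 10 counts (adjusted p 0.0382) and with all 15 libraries in 1 fit (0.0457). So did an edgeR fit with the replicate number as a block, though the labels do not say that numbers pair mice.

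With edgeR 0 of the 10 clock genes were called higher and 0 lower between late and untreated mice, against 0.989% and 2.01% of 13547 genes, or 134 and 272 genes. Scaling by library totals made this split 7484 higher and 90 lower. With DESeq2 0 were called higher and 1 lower, against 2.10% and 4.16% of 12936 genes, and 1 passed at an unadjusted p under 0.05 by edgeR, where 17.0% of all genes did. Non-overlap was seen for 1 clock gene on the low side, against 2.98% of all genes, and for 0 on the high side, against 2.50%. Per3 at 0.71, Per1 at 0.44 and Cry1 at 0.39 had the most positive log2 fold changes, and Nr1d2 at -0.36 and Dbp at -0.24 the most negative after Tef. Their adjusted p ran from 0.314 to 0.678. Nr1d1 at 0.22, Cry2 at 0.18, Per2 at 0.10 and Clock at -0.16 were smaller. By the exact permutation test Cry1, higher in late mice, had an unadjusted p of 0.0476. The median over the clock genes was 0.14, against 0.0023 over all genes.

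Early mice were set against the same untreated libraries, and here no gene passed the test. With edgeR and with DESeq2, 0 of the 9 clock genes tested were called, and 0% of 12151 genes were called in either direction by edgeR and 0% of 12090 by DESeq2. At an unadjusted p under 0.05, 1 clock gene passed, Per3, against 4.44% of all genes. By the fit Per3 was 1.94-fold higher in early mice, with a log2 fold change of 0.95 ± 0.36, an adjusted p of 0.938 and an exact permutation p of 0.00794. All 5 early mice exceeded all 5 untreated mice for Per3, a separation on the high side that 0.346% of all genes showed, and 0 clock genes were separated on the low side, against 0.230%. The untreated values of Per3 rested on as few as 1 count in untreated 3. Per2 at -0.58, Cry2 at 0.41 and Dbp at -0.37 did not pass, and Nr1d2, Per1, Cry1, Tef and Clock lay between -0.12 and 0.17. Nr1d1 had too few counts to be tested here.

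Gene sets chosen to stand for opposite phases were then compared within each library. The contrast was the mean log2 CPM of Dbp, Tef, Nr1d1, Nr1d2, Per1, Per2 and Per3 minus that of Bmal1, Nfil3, Clock and Cry1, so that the scale of a library largely cancels. Npas2, planned for the second set, had at most 10 counts per library and was left out. Of the genes kept, the background above names Dbp, Nr1d1 and Per3 as peaking opposite to Bmal1. Whether the other genes of the sets peak at opposite times in blood was not tested. The contrast was -1.15, -1.03, -1.23, -1.0 and -2.03 in untreated mice 1 to 5. In early mice 1 to 5 it was -0.74, -0.76, -0.91, -1.11 and -1.08, and in late mice 1 to 5 it was -1.54, -1.15, -1.10, -1.63 and -1.35. Early 1, 2 and 3 held the highest values, while untreated 2 and 4 lay above early 4 and 5. The early and late ranges met in late 3, which lay just above early 4.

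By group the contrast averaged -1.29 ± 0.43 in untreated, -0.92 ± 0.17 in early and -1.36 ± 0.23 in late mice (SD, n = 5 each). The late mean differed by -0.43 from the early mean and by -0.07 from the untreated mean. The untreated mean was drawn down by untreated 5, the lowest of the 15. Without it the late mean lay -0.25 from the untreated one, and the distance from untreated to early mice went from 0.37 to 0.18. Late minus untreated was -0.15 without the libraries poor in 18S sequence and ran from -0.25 to 0.005 with single libraries left out, against -0.50 to -0.36 for late minus early. The second set of genes was 0.46 higher in late than in early mice, while the first set differed by 0.03. In the second set the edgeR log2 fold changes were 1.05 for Nfil3, 0.50 for Cry1, 0.40 for Bmal1 and -0.13 for Clock, none of which passed, so Nfil3 weighed most in its mean. Within the first set, the fall of Tef and Nr1d2 stood against the positive values of Per1 and Per2. The pair Dbp minus Bmal1, which peak at opposite times in cycling tissue, averaged -1.19 ± 0.50, -1.29 ± 0.66 and -1.36 ± 0.33 in untreated, early and late mice. For that pair the late and early groups differed by -0.07, less than the SD within any of the groups. The early mean of the pair was drawn down by early 4, at -2.41 on 2 Dbp counts. The other early mice lay between -1.275 and -0.692, so the small difference depended on early 4. The contrast was kept as a description with no test, since it is a score over the clock genes themselves. Its genes were also chosen with earlier results known. Whether the groups were bled at different hours was not tested, because no label gives an hour, and such a difference cannot be told apart from one of treatment.

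**Figure D3:**
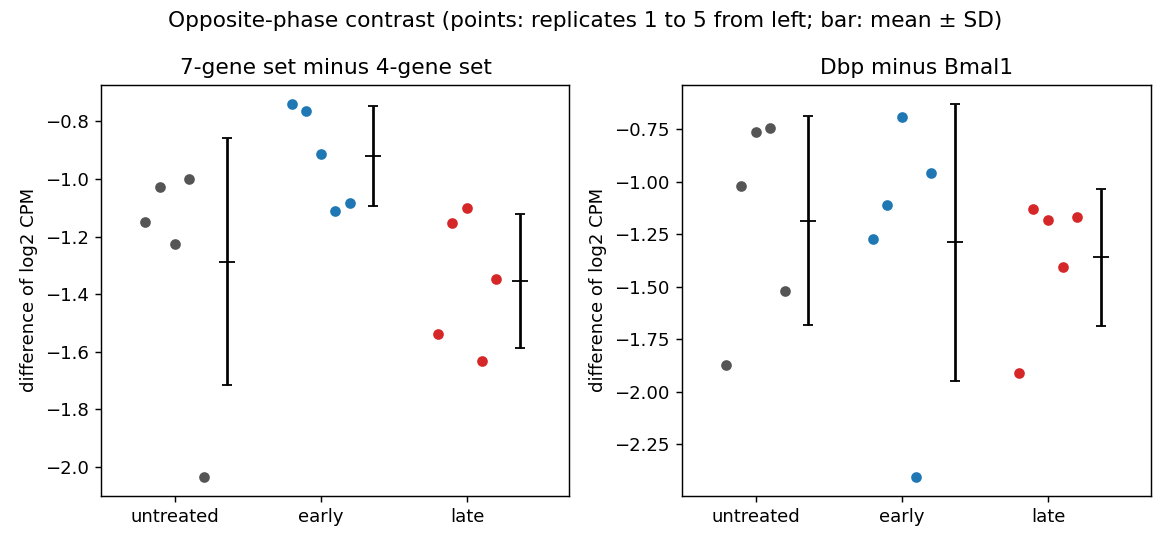
Opposite-phase contrast in each library (vertical axes, difference of log2 CPM) for untreated, early and late mice (horizontal axes), as the 7-gene set minus the 4-gene set on the left and as Dbp minus Bmal1 on the right, with the mean ± SD as a bar (n = 5). On the left the early mice average -0.92 and the late mice -1.36, and on the right the same groups average -1.29 and -1.36. The early mean on the right is drawn down by early 4, at -2.41 on 2 Dbp counts.

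Across the 15 libraries the clock genes did not vary as a single group. Of the 45 pairs of clock genes, 20 had a positive and 25 a negative Pearson correlation of log2 CPM, from -0.80 to 0.65 with a median of -0.02. A single pair passed at an adjusted p under 0.05 over the 45. Per1 and Nr1d2 were negatively related, with r = -0.804 (permutation p = 0.00038, adjusted p 0.0171) and rho = -0.711 (permutation p = 0.00402, adjusted p 0.0708). Without early 5 and untreated 3, the libraries farthest from the median of Per1, r was -0.622 with an adjusted p of 0.184. On deviations from the group means, r was -0.736 (permutation p = 0.0183, adjusted p 0.279), and without the libraries poor in 18S sequence it was -0.788 (adjusted p 0.0823). The call was thus lost in both settings that left libraries out, with fewer libraries in each.

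Several pairs came near that threshold. Nr1d2 was also negatively related to Per2 (r = -0.725, adjusted p 0.0585) and Cry1 (r = -0.671, adjusted p 0.0728), and positively to Tef (r = 0.638, adjusted p 0.0804). Per1 and Per2 had r = 0.649 and Cry1 and Tef r = -0.662 (adjusted p 0.0728 for each). The low libraries of Nr1d2 thus tended to be the high libraries of Per1, a pattern that did not pass within groups. None of the pairs with Dbp passed at an adjusted p under 0.05. Dbp and Nr1d1 had r = 0.240 and rho = 0.504 (permutation p = 0.0581, adjusted p 0.262), and on deviations from the group means rho = 0.636 (permutation p = 0.029, adjusted p 0.277). Dbp and Tef had r = -0.025 and rho = 0.179, with r = 0.294 without untreated 3 and early 4, and Dbp and Nr1d2 r = 0.048 and rho = 0.239, with r = -0.174 without early 2 and untreated 3. The sign turned for Dbp and Per2 as well, from r = 0.301 to -0.626 without early 2 and early 4 (adjusted p 0.184). Dbp rested on 2 to 103 counts per library, which limits what such values can show.

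**Figure D4:**
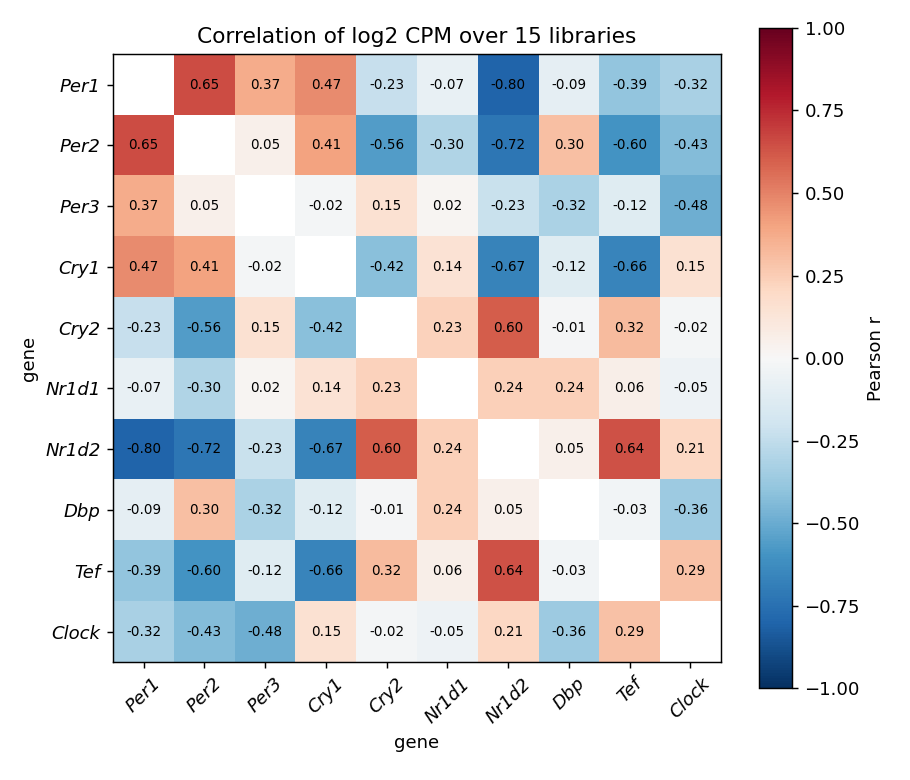
Pearson r of log2 CPM between each pair of clock genes (both axes are genes) over 15 libraries, from -1 in blue to 1 in red. Nr1d2 is negatively related to Per1 (-0.80), Per2 (-0.72) and Cry1 (-0.67) and positively to Tef (0.64).

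The other genes of the loop were read from a list of 18, of which 12 could be tested in both comparisons with the late group and 11 between early and untreated mice. By edgeR 0 were called in each of the 3 comparisons, with 5, 2 and 0 past an unadjusted p of 0.05 in late versus early, late versus untreated and early versus untreated mice, where 23.8%, 17.0% and 4.44% of all genes passed. DESeq2 called 1 in late versus early mice, Nfil3, where 5.91% of all genes were called higher, and 0 in the other comparisons. Nfil3, a repressor that competes with DBP and TEF for D-boxes, averaged 28.5 ± 10.9 CPM in late and 13.5 ± 6.28 in early mice, a log2 fold change of 1.05 ± 0.32 (edgeR adjusted p 0.0712, DESeq2 adjusted p 0.0246). Bmal1, the partner of CLOCK, averaged 8.77 ± 1.29 in late, 6.62 ± 1.55 in early and 8.96 ± 1.84 CPM in untreated mice, with a late versus early log2 fold change of 0.40 ± 0.18 (adjusted p 0.196). Among the most abundant were the kinases Csnk1d and Csnk1e, which phosphorylate PER proteins. Their late versus early log2 fold changes were 0.05 and 0.40, with adjusted p of 0.783 and 0.148. Of the 5 past an unadjusted p of 0.05 in late versus early mice, Nfil3, Bmal1 and Csnk1e pointed upward and Btrc at -0.42 (adjusted p 0.175) and Timeless at -0.45 (adjusted p 0.188) downward. Library totals turned Btrc to 0.43 and Timeless to 0.42. The list's median log2 fold changes were 0.13, -0.05 and -0.02 in the 3 comparisons.

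Genes that the clock or stress hormones drive were read the same way. Of 11 clock output genes, 8 were tested in late versus early mice and 0 were called by edgeR (2 unadjusted, against 23.8% of all genes), while DESeq2 called 1, Por, at 0.79 (adjusted p 0.0403), where 5.91% of all genes were called higher. By edgeR Por, an electron donor to cytochrome P450 enzymes, was at 0.80 ± 0.26 (adjusted p 0.0834), and the other abundant members were Nampt at 0.13 and Pnp at 0.62. In late versus untreated mice 0 of 8 were called and in early versus untreated 0 of 7, by edgeR and DESeq2, with 0 unadjusted. Of 12 glucocorticoid-responsive genes, all tested, edgeR called 0 in each comparison, with 2, 1 and 2 unadjusted against 23.8%, 17.0% and 4.44% of all genes, and DESeq2 called 1, Il1r2, in late versus early mice (edgeR 1.66 ± 0.49, adjusted p 0.0665), against 5.91% of all genes called higher. The most abundant of that list were Tsc22d3 at 0.16, Dusp1 at 0.71 and Cebpd at 0.76 in late versus early mice. Their list's median log2 fold changes were 0.29, 0.27 and -0.09. Early 3, the high early library for Per1 and Per2, also held the most of Fkbp5, a glucocorticoid target, in the early group. Fkbp5 was at 20.5, 20.5, 87.4, 19.8 and 30.8 CPM in early mice 1 to 5. Whether stress hormones took part in the Per1 values was not tested.

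Immediate early genes, which cells switch on within minutes of handling or stimulation, included calls in the late group. Of 13 tested in late versus early mice, 1 rose by edgeR and 4 by DESeq2, against 2.50% and 5.91% of all genes, and 7 passed at an unadjusted p under 0.05, against 23.8%. Zfp36, whose product destabilizes mRNAs of cytokines, averaged 160.0 ± 31.9 CPM in late and 87.0 ± 20 in early mice (log2 fold change 0.90 ± 0.18, adjusted p 0.021). Against untreated mice 1 of 13 rose by edgeR, Atf3, at 1.05 ± 0.22 (adjusted p 0.0271), and 2 by DESeq2, against 0.989% and 2.10% of all genes, with 2 unadjusted, against 17.0%. Without the libraries poor in 18S sequence both calls were lost (Zfp36 at 0.83, adjusted p 0.0592, and Atf3 at 1.06, adjusted p 0.149). With 1 library left out the Zfp36 call was lost in 3 of 10 fits and the Atf3 call in 9 of 10. Over those fits the log2 fold changes ran from 0.787 to 1.059 for Zfp36 and from 0.896 to 1.185 for Atf3. Between early and untreated mice 0 of 12 were called by edgeR or DESeq2, with 5 unadjusted, against 4.44%. Jund, Junb and Btg2 were the most abundant of the list, at -0.23, 0.80 and 0.33 in late versus early mice, with adjusted p of 0.445, 0.102 and 0.0861. The list's medians were 0.34, 0.28 and -0.23.

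Transcripts that mark red cells were lower in the late group. Summed over 11 erythroid markers found of 12 (Ahsp was not found), levels were 1450000, 246400, 1137000, 552700 and 428500 CPM in untreated mice 1 to 5. They were 336300, 576800, 401100, 1310000 and 724400 CPM in early mice and 211500, 95440, 121100, 240800 and 89710 CPM in late mice. The 5 late sums were the lowest of the 15. By edgeR 5 of 10 tested erythroid markers fell in late versus early mice, against 2.48% of all genes (Hbb-bt, Alas2, Slc4a1 and Epb42 among them; median of the list -2.28) and 5 of 10 in late versus untreated mice, against 2.01% (Alas2, Slc4a1, Epb42 and Tfrc among them; median -2.40). DESeq2 called 9 lower in each, against 5.15% and 4.16% of all genes, and all 10 passed at an unadjusted p under 0.05 in each, against 23.8% and 17.0%. Without the libraries poor in 18S sequence, with fewer libraries in the fit, edgeR called 0 erythroid markers in either comparison. In late versus untreated mice it also called 0 without untreated 3 or any 1 late library. In late versus early mice Slc4a1 was kept without any 1 library (adjusted p up to 0.0409), while Hbb-bt, Alas2 and Epb42 were lost in 8, 3 and 2 of 10 such fits. The log2 fold changes of the named genes stayed negative throughout these fits. In late versus early mice with 1 library left out they ran from -2.78 to -2.13 for Hbb-bt, from -2.38 to -1.86 for Alas2 and from -3.18 to -2.58 for Epb42. In early versus untreated mice 0 were called by edgeR or DESeq2, with 0 unadjusted. Hbb-bs was the most abundant. Library totals kept the medians negative, at -1.30 and -1.19, but turned Tfrc to 0.09 in late versus early and 0.21 in late versus untreated mice, and Gata1 to 0.43 and 0.52. Whether red cell transcripts had a part in the Tef and Nr1d2 differences was not tested. With scaling factors computed without the erythroid list and Rn18s-rs5 Tef and Nr1d2 were again called lower in late versus early mice.

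Among white cell markers, some of monocytes and T cells passed the test by edgeR. Neutrophil sums were 7975, 10970, 4525, 11410 and 9169 CPM in untreated mice 1 to 5. In early mice they were 3787, 2425, 7351, 3122 and 6612 CPM, and in late mice 9969, 5691, 11360, 14870 and 7325 CPM. Early 3 was the high early library here too, and late 2 the low late library. Of the 8 neutrophil markers, edgeR called 0 in late versus early mice (7 unadjusted, against 23.8% of all genes, median 1.09) and DESeq2 6 higher, against 5.91%. EdgeR and DESeq2 called 0 in the other comparisons, with 0 and 5 unadjusted in late and in early versus untreated mice, against 17.0% and 4.44%, and S100a9 was the most abundant. Of 7 monocyte markers, Csf1r rose in late versus early mice (0.75 ± 0.19, adjusted p 0.0425), and Csf1r and Ccr2 rose in late versus untreated mice (0.73 ± 0.16 and 1.11 ± 0.18, adjusted p 0.0322 and 0.0242), against 2.50% and 0.989% of all genes higher. DESeq2 called 2 higher in each, against 5.91% and 2.10%, and 3 and 5 passed at an unadjusted p under 0.05, against 23.8% and 17.0%. These edgeR calls were lost without the libraries poor in 18S sequence (adjusted p 0.052 for Csf1r in late versus early mice and 0.107 for both genes in late versus untreated mice). The log2 fold changes were no smaller in those fits. They were 0.915 for Csf1r in late versus early mice, and 0.847 for Csf1r and 1.131 for Ccr2 in late versus untreated mice. With 1 library left out Csf1r was lost in 7 of 10 fits in late versus early mice, and Csf1r and Ccr2 in 8 and 5 of 10 in late versus untreated mice. Their log2 fold changes ran from 0.636 to 0.912 for Csf1r in late versus early mice. Against untreated mice they ran from 0.62 to 0.822 for Csf1r and from 1.019 to 1.199 for Ccr2. In early versus untreated mice edgeR and DESeq2 called 0, with 0 unadjusted. Monocyte sums were 548 to 962 CPM in untreated, 560 to 1248 in early and 926 to 1438 in late mice, with F13a1 the most abundant.

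**Figure D5:**
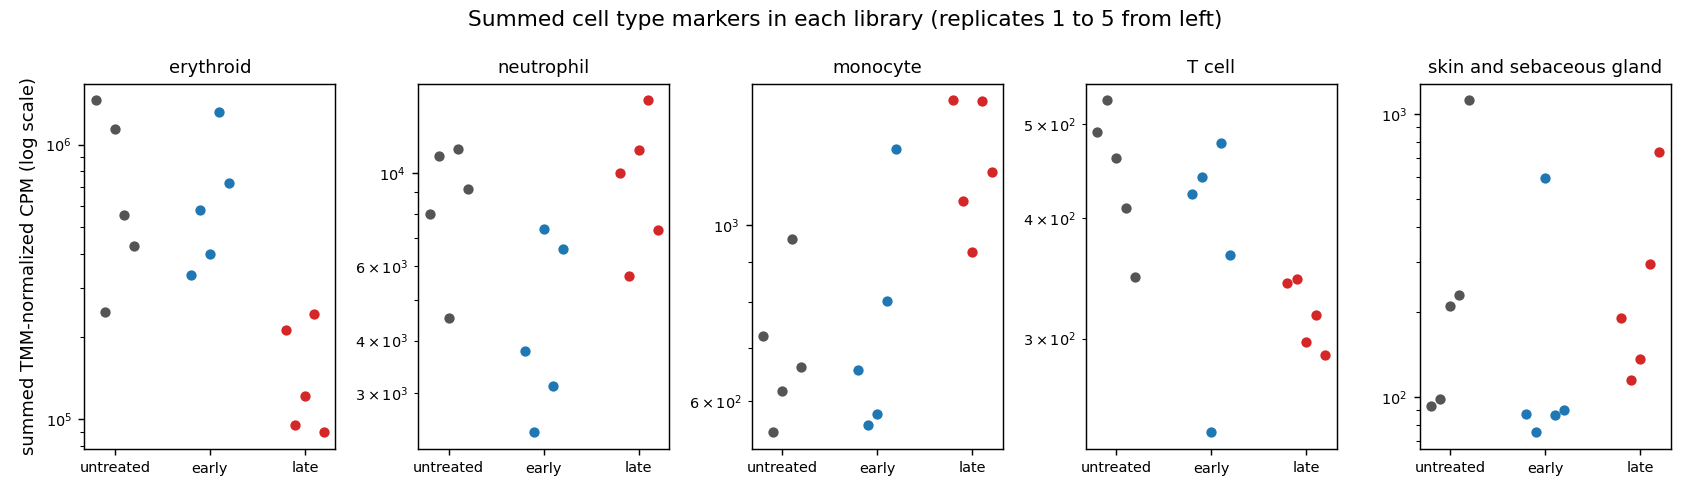
Summed TMM-normalized CPM (vertical axes, logarithmic) of erythroid, neutrophil, monocyte, T cell and skin gland markers in each library (points, replicates 1 to 5 from left) of the untreated, early and late groups (horizontal axes). Late libraries had the lowest erythroid sums under TMM, from 89700 to 241000 CPM, and 3 libraries, untreated 5, early 3 and late 5, had skin gland sums of 598 CPM or more.

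Among T cell markers Cd3g fell in late versus untreated mice (-0.63 ± 0.13, adjusted p 0.0274), 1 of 8 by edgeR and 5 of 8 by DESeq2, against 2.01% and 4.16% of all genes, a direction that library totals turned to 0.28. At an unadjusted p under 0.05, 7 of 8 passed there, against 17.0% of all genes. The Cd3g call was lost without the libraries poor in 18S sequence (-0.66, adjusted p 0.128) and in 9 of 10 fits with 1 library left out, all but the one without untreated 5, while its log2 fold change ran from -0.72 to -0.56 over the 10. In late versus early and early versus untreated mice 0 of 8 were called by either tool, with 0 unadjusted. T cell sums were 347 to 529 CPM in untreated, 240 to 478 in early and 288 to 346 in late mice, and Tcf7 was the most abundant. The B cell list (6 genes), the natural killer cell list (6, Gzma) and the leukocyte list (5, Ptprc) had 0 called by edgeR in each comparison. Of these, DESeq2 called 1, Coro1a of the leukocyte list, in late versus early mice, against 5.91% of all genes called higher. At an unadjusted p under 0.05 the B cell list had 0 in each comparison, the natural killer list 1, 0 and 0 and the leukocyte list 3, 1 and 1, against 23.8%, 17.0% and 4.44% of all genes. Platelet markers, 5 of 6 tested with Gp1bb at 0 and Ppbp the most abundant, had 0 called by edgeR (1, 2 and 0 unadjusted, against 23.8%, 17.0% and 4.44% of all genes) and 1 lower by DESeq2, Ppbp, in late versus untreated mice, against 4.16%. Ppbp was at -0.58 by DESeq2 there, a direction that library totals turned to 0.37. The 18S gene Rn18s-rs5 was called by DESeq2 in late versus untreated mice and by edgeR in 0 of the 3 comparisons, with an unadjusted p under 0.05 in both comparisons with the late group. How far any of these cell types account for the clock gene values was not tested.

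Skin transcripts, which a cheek bleed can carry, were also read. Of 10 skin and sebaceous gland genes 4 were tested and edgeR and DESeq2 called 0 in each comparison, with 1, 0 and 0 unadjusted, against 23.8%, 17.0% and 4.44% of all genes. Awat1 was at 0 in every library and Scd3 was the most abundant. The sums were 92.9, 98.8, 210.6, 229.0 and 1121 CPM in untreated mice 1 to 5. In early mice they were 87.5, 75.2, 598, 86.2 and 90.1 CPM, and in late mice 191, 115, 137, 295 and 738 CPM. The high libraries were 1 per group. Without those 3 libraries, which was tried after the data had been seen, Tef and Nr1d2 were again called lower in late versus early mice, and Per2 was called higher (log2 fold change 1.01, adjusted p 0.0392), in a fit that called 725 genes higher and 489 lower of 13168.

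Some reads of the clock genes cannot be assigned to them with certainty where exons of another gene lie on the opposite strand. Thra, which encodes a thyroid hormone receptor, shares 1694 exon bases with Nr1d1, 52.3% of the exon bases of Nr1d1. Thra averaged 6.77 ± 1.96 CPM (SD, n = 15), above Nr1d1 at 1.89 ± 0.860 CPM. Over the 15 libraries Thra and Nr1d1 had r = 0.849 (permutation p = 9e-05) and rho = 0.732 (permutation p = 0.00244), with r = 0.641 without early 1 and untreated 1 and r = 0.849 on deviations from the group means. Nr1d1 and Thra were thus high and low in the same mice, also within groups, and how much of the Nr1d1 level belongs to Thra was not tested, since the strand setting of the counting is not stated. Dbp shares 539 exon bases, 15.5%, with Sphk2, which was at 25.9 ± 6.54 CPM, and their r was 0.265. Clock shares 2047 exon bases, 11.9%, with Tmem165, at 20.8 ± 2.71 CPM and r = -0.208. Tef shares 916 exon bases, 11.1%, with Gm62928, which is not in the count files, and 193 bases, 2.34%, with Gm17597, at 0.0857 ± 0.119 CPM. Reads from Gm62928 within the Tef count could not be looked for. None of Thra, Sphk2 and Tmem165 was called in any comparison by edgeR, with adjusted p from 0.142 to 0.998.

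The genes whose levels ran most like Dbp and Per1 were drawn as a description, from genes averaging 50 counts or more over the 15 libraries. For Dbp, among 9454 genes, the highest correlations were with 1110035H17Rik (r = 0.871), N4bp3 (0.832), Fhl3 (0.827), Cnot10 (0.812) and Exosc4 (0.811). The lowest for Dbp were Mrpl37 (-0.799), Pdzd9 (-0.788) and Zfp646 (-0.786). Early 4 was by far the lowest library for Dbp, at 0.722 CPM on 2 counts. How far these values rest on that library was not tested. For Per1, among 9453 genes, those among the highest included Sf3b2 (0.916), Nfatc1 (0.893), Itpk1 (0.892) and Insr (0.869), and the lowest Pdik1l (-0.820), Nmt2 (-0.818) and Zfp644 (-0.818). No clock gene was among the genes named here for Dbp or Per1. Dbp, Nr1d1 and Per3 averaged fewer than 50 counts, so they could not appear, and their absence shows nothing. Nr1d2, at r = -0.804 with Per1, came close to the lowest values named.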

How the data were processed

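The authors aligned paired reads to GRCm39 with STAR 2.7.9, sorted them with SAMtools 1.7 and ran HTSeq-count 0.13.5, and they deposited the resulting raw counts of read pairs for each gene and library. The labels list mm10 beside GRCm39 as builds, and give neither the annotation release nor the strand setting. Counter lines for unassigned pairs, 75.6% to 88.1% of the aligned pairs as counted per library (no feature: 12.6% to 30.8%), were removed. They list 0 unaligned pairs, and whether a pair with several alignments was entered once is not stated. Of 55416 identifiers, 54749 matched the GENCODE annotation.

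Each pair of groups (5 and 5 libraries) was fitted alone by edgeR 4.0.16 (filterByExpr, TMM, two-sided quasi-likelihood test), and p-values were adjusted over all genes tested (Benjamini-Hochberg, threshold 0.05). A gene's SE came from its test statistic. DESeq2 1.42.0 was an alternative, with library totals, other filters, 1 fit of 15 libraries, a replicate block and libraries left out. Clock genes were also compared by two-sided exact permutation tests (252 splits), whose p-values were not adjusted. Correlations used log2 CPM with a prior count of 2 and 100000 permutations, adjusted over 45 pairs. Groups were taken from the labels, with no batch named there. The clock genes and all lists were chosen with earlier results of these data known. The genes named were the 10 clock genes and, of each list, those called and the 3 most abundant, of which not all are printed. Bmal1, Nfil3, Btrc, Timeless, Gata1, Fkbp5 and Il1r2 fall outside that rule and were named after their values were seen. Python used scipy 1.17.1.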

Additional observations from a re-analysis of the deposited data

Results flagged for a closer look

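In 33 sets of 5 libraries (each of the 10 clock genes and the opposite-phase contrast, in each of the 3 groups), the highest or lowest library was compared with its nearest neighbour as a share of the range. In 3 sets this share was above Dixon's critical value of 0.71, where chance flags about 1 in 20 groups. Cry2 was highest in early 2, at 7.454 CPM, with a share of 0.840. Nr1d2 was highest among untreated mice in replicate 3, at 18.13 CPM, with a share of 0.738, and untreated 3 was also the untreated library with the least Per1. The opposite-phase contrast was lowest among untreated mice in replicate 5, at -2.035, with a share of 0.782, and that library also held 624 CPM of Scd3. Whether skin transcripts had a part in that value was not tested.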

How the results depend on the processing

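Under TMM or DESeq2 scaling Tef and Nr1d2 stayed lower in late than in early mice in each setting tried, while their calls did not always hold. Between late and early mice, 2 clock genes were called. This count was 2 with DESeq2. It was 2 of 6 tested with at least 10 counts per library, where 724 of 10193 genes were called. TMM factors free of erythroid genes also gave 2, where 632 of 13315 genes were called. It was 5, all higher, with library totals (Per1, Per2, Cry1, Dbp and Clock) and 0 with no filter. All 15 libraries in 1 fit gave 1, where 749 of 13421 genes were called, and the Nr1d2 call was lost (adjusted p 0.0695). The count was 0 without the libraries poor in 18S sequence, and 3 without the libraries rich in Scd3, a setting chosen after seeing the data. It ran from 0 to 5 with single libraries left out. The 663 genes called became 1439 with DESeq2, 9060 with library totals (8923 higher and 137 lower, against 333 and 330), 1282 with no filter, 4 without the 18S-poor libraries, 1214 without the Scd3-rich ones, and 145 (without late 3) to 1610 (without early 3) with 1 library left out. They were also below 663 by more than 1.5 times without early 1, 2 or 4 (431, 353 and 151) and late 1, 4 or 5 (297, 198 and 246). Fewer libraries enter each fit that leaves some out, and otherwise the cause was not tested. Between late and untreated mice, 0 clock genes became 1, Tef, with DESeq2, with at least 10 counts (adjusted p 0.0382) and with 15 libraries in 1 fit (0.0457), and 5 with library totals. Over all alternatives run by edgeR with TMM, the adjusted p of Tef there ran from 0.0194 to 0.154. The 406 genes called became 810 with DESeq2, 7574 with library totals (7484 higher and 90 lower, against 134 and 272) and 0 without the 18S-poor libraries. With 1 library left out they ran from 0 (without untreated 3 or late 1, 4 or 5) to 593 (without untreated 5), with 1 without late 2, 9 without late 3, and 157 and 199 without untreated 1 and 4. Between early and untreated mice, 0 genes became 3 with library totals.

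Library totals raised the median of all genes by 0.86 in late versus early mice and 0.91 in late versus untreated mice, and signs turned with it. In late versus early mice they gave Per3 0.61, Cry2 0.66, Nr1d1 0.56, Nr1d2 0.36, Tef 0.24 and Clock 0.72 (adjusted p 0.0213). In late versus untreated mice they gave Nr1d2 0.62, Dbp 0.66, Tef 0.33 and Clock 0.76, and in early versus untreated mice Clock 0.037. Without the Scd3-rich libraries Nr1d1 turned to -0.11 and Clock to 0.015 in late versus untreated mice and Clock to 0.12 in early versus untreated mice. Clock was also at 0.025 by difference of log2 CPM there. With 1 library left out, the signs were mixed for Nr1d1 (-0.39 to 0.034) and Dbp (-0.033 to 0.32) in late versus early mice and for Per2 (-0.075 to 0.31) in late versus untreated mice. In early versus untreated mice they were mixed for Per1 (-0.33 to 0.045), Cry1 (-0.26 to 0.061), Tef (-0.032 to 0.12) and Clock (-0.086 to 0.13). None of these values but Clock with library totals passed the test.

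With the replicate number as a block, 1 clock gene was called between late and early mice, Tef (-0.60, adjusted p 0.0454), and Nr1d2 was at -0.50 (0.0542). Between late and untreated mice 1 was called, Tef (-0.59, adjusted p 0.0194), and between early and untreated mice 0, with Clock at 0.018. The genes called were 673, 607 and 0. The labels do not say that numbers pair mice. Deviations from group means, correlated between libraries of the same number, ran from -0.18 to 0.46 in late versus early mice, with 1 of 5 numbers above 0.1. They ran from 0.029 to 0.58 in late versus untreated mice, with 4 of 5 above it and number 3 the lowest, and from -0.24 to 0.08 in early versus untreated mice, with 0 above it. Of 10 libraries, 2, 5 and 0 correlated best with their own number in the other group, a hint from the data and not the design. The numbers were therefore not taken as pairs.

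The single correlation called became 0 on deviations from group means, 0 without the 2 farthest libraries and 0 without the 18S-poor ones, and stayed 1 with a prior count of 0.5. The contrast of opposite phases moved to -0.071 in late minus early mice and -0.10 in early minus untreated mice when Dbp minus Bmal1 stood in for the gene sets, and was then -0.18 in late minus untreated mice. Both differences with early mice depended on early 4, at -2.41 for this pair on 2 Dbp counts. The other early values ran from -1.275 to -0.692. Leaving out each library in turn for the contrast was added after seeing the data. Without untreated 5 it was -0.25 in late minus untreated and 0.18 in early minus untreated mice. Nr1d1 minus Npas2 was not run, since Npas2 did not pass the filter on low counts. Depth limits Per3, Nr1d1 and Dbp most, with as few as 1, 1 and 2 counts in a library.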
